A study of Homo sapiens with 15 samples.

Results

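The immediate early genes described here were 9 genes that cells transcribe within minutes of serum or growth factor stimulation, ARC, EGR1, EGR2, EGR3, FOS, FOSB, NR4A1, IER2 and IER3. They were chosen by name from the 23368 genes of the count table, because the dose response of ARC in these libraries stood out from that of the other 8. That choice used the values given below, so the values of the 9 genes are a description and carry no test. A filter asked for a mean of 10 or more normalized counts in every clone before any fit, and 7 of the 9 passed it. EGR2 and EGR3 stayed under it and are given by their reads.

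RNA was sequenced from 3 clones of metastatic breast cancer cells, each grown from a single sorted cell and each carrying a FLAG-tagged RBM47 transgene behind a promoter that doxycycline, an antibiotic added to the medium, switches on. WT6 cells and WT10 cells carried wild type RBM47, an RNA-binding protein, and MUT3 cells carried RBM47-I281fs, a frameshift mutant that is truncated. The paper reports little of this mutant protein although its mRNA was strongly expressed, and takes it to be unstable and inactive. In non-clonal cells with the inducible mutant construct it detected no mutant protein by Western blotting. The labels give MDA231, a human triple negative breast cancer line, for all 3 clones, while the methods of the study derive WT6 from CN34-BrM2 and WT10 and MUT3 from a brain metastatic derivative of MDA231. Each clone was sequenced without doxycycline and at 1, 2.5, 5 and 25 ng/ml, with 1 library per clone and dose. The time in doxycycline before RNA was taken was not given in the sources used here, and doxycycline and the transgene cannot be told apart within a clone. With 1 clone per line and construct, WT10 and MUT3 differ in construct and clone, and WT6 and WT10 in clone and, by the methods, in line, and these cannot be told apart.

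A normalized count is a gene's reads over a size factor of the library, which corrects for sequencing depth. Each library held between 14955172 and 44771871 reads on genes (median 18152381), and the one of WT10 cells at 5 ng/ml held the most. A count of 3 reads, used as the floor, was worth between 1.19 and 4.09 normalized counts. The library most alike each of the 15 by correlation came from the same clone in 15 of 15 cases. RBM47 mRNA rose with doxycycline in all 3 clones. At 25 ng/ml it had risen from 258 to 10425 in WT6 cells and from 168 to 19877 in WT10 cells. In MUT3 cells it had risen from 73.8 to 22084, with 92.1, 336 and 949 at 1, 2.5 and 5 ng/ml. Equal doses thus did not give equal RBM47 mRNA in the 3 clones. In WT6 cells its course was not even, with 8094 at 2.5 ng/ml and 3966 at 5 ng/ml. Keratins 8 and 18 (KRT8, KRT18) and vimentin (VIM), found in these breast cancer lines, were abundant in every library, with counts of at least 8159 for each. The epithelial cadherin CDH1 reached at most 19.9, and the T cell gene CD3E had 0 reads throughout.

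Immediate early genes need no new protein for their induction. ERK signalling from growth factor receptors phosphorylates the ternary complex factors ELK1, ELK3 and ELK4, which bind together with the serum response factor SRF at CArG boxes near genes such as FOS and EGR1. The MRTF cofactors MKL1 and MKL2 join SRF when actin is polymerized and drive cytoskeletal genes. FOS and FOSB encode partners of JUN in the dimeric factor AP-1, the EGR genes encode zinc finger factors, and NR4A1 encodes an orphan nuclear receptor. ARC is best known in neurons, where its transcript travels to dendrites and its protein takes part in synaptic plasticity. Many of these transcripts are short-lived, so their levels can change quickly. A change in synthesis and a change in decay cannot be told apart from RNA levels alone.

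ARC occupies chromosome 8 from 143692410 to 143695840 (hg19, minus strand), with 3 exons and a transcript of 2950 nucleotides, and no annotated gene overlaps it in GENCODE release 44. Its normalized counts at 0, 1, 2.5, 5 and 25 ng/ml, the order used for all members, were 47.1, 80.3, 135, 163 and 340.1 in WT6 cells. WT10 cells had 321, 279.7, 303, 223 and 47.7. MUT3 cells had 30.01, 33.3, 33.6, 34.9 and 46.1. The levels of the 2 wild type clones thus crossed: WT10 was the highest untreated clone, and at 25 ng/ml WT6 stood where untreated WT10 had been and WT10 stood where untreated WT6 had been. A change in the level per cell and a change in the share of cells that express the gene cannot be told apart in bulk RNA.

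**Figure D1:**
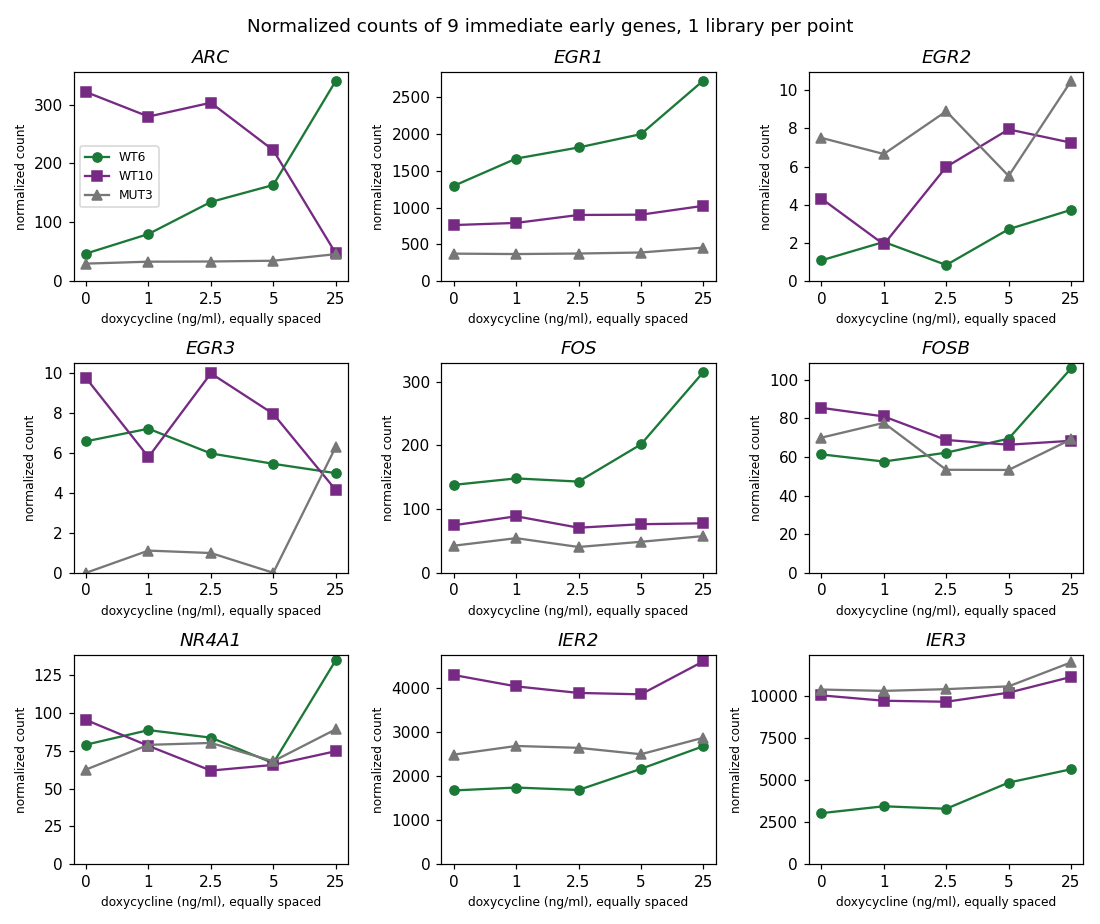
Normalized count (y axis, from 0) of each of the 9 genes against doxycycline (x axis, ng/ml, doses equally spaced), with 1 library per point and 1 line per clone. ARC rose from 47.1 to 340.1 in WT6 cells and fell from 321 to 47.7 in WT10 cells, while EGR2 and EGR3 stayed at or below 10.5 in all 15 libraries.

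The ratio of ARC to its untreated count in WT6 cells was 1.70 (95% interval 1.16 to 2.53) at the lowest dose, then 2.86 (2.03 to 4.10), 3.47 (2.43 to 5.04) and, at 25 ng/ml, 7.22 (5.22 to 10.2). These intervals are exact binomial intervals on the reads and cover counting error only, since no condition had a replicate. The rise was present at every dose, and the first step up already exceeded counting error. The same 4 doses gave WT10 cells ratios of 0.870 (0.738 to 1.03), 0.944 (0.802 to 1.11), 0.693 (0.601 to 0.800) and 0.148 (0.106 to 0.203). Most of the fall therefore lay in the last step, from 5 to 25 ng/ml, over which the count was multiplied by 0.214 (0.155 to 0.290). In MUT3 cells the ratio at 25 ng/ml was 1.54, with an interval of 0.914 to 2.64 that includes 1. The reads behind these values were few in MUT3 cells, between 24 and 44 per library, against 43 to 273 in WT6 cells and 46 to 560 in WT10 cells.

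The 15 ARC levels were put in order from 340.1 in WT6 cells at 25 ng/ml to 30.01 in untreated MUT3 cells. Of the 14 pairs of neighbours in that order, 4 differed by more than counting error and 10 did not. The top 4 levels, those of WT6 at 25 ng/ml and of WT10 at 0, 2.5 and 1 ng/ml, were not separated by counting error from their neighbours among them. WT10 at 5 ng/ml came next, then WT6 at 5, 2.5 and 1 ng/ml. The lowest group held WT10 at 25 ng/ml (47.7), untreated WT6 (47.1) and all 5 MUT3 libraries, with no step between neighbours beyond counting error.

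Untreated WT10 cells held 6.82 times as much ARC as untreated WT6 cells (4.94 to 9.62) and 10.7 times as much as untreated MUT3 cells (7.06 to 17.0), which the methods place in the same parental line. Untreated WT6 and MUT3 cells differed by a ratio of 1.57, with an interval of 0.932 to 2.71. At 25 ng/ml the order was turned, with a ratio of WT10 to WT6 of 0.140 (0.100 to 0.192) and of WT6 to MUT3 of 7.38 (5.35 to 10.4). WT10 and MUT3 cells then differed by a ratio of 1.03 (0.669 to 1.60).

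Among the 12644 genes that passed the filter in every clone, ARC had the largest fall of all in WT10 cells at 25 ng/ml, on the log2(normalized count + 1) scale. In WT6 cells at the same dose its rise was number 40 from the top, and in MUT3 cells number 192. In WT10 cells at 2.5 ng/ml, its fall was number 4666 from the bottom.

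The zinc finger gene EGR1 occupies chromosome 5 from 137801168 to 137804992 (hg19, plus strand), where no annotated gene overlaps it. Its normalized counts in WT6 cells were 1294, 1665, 1815, 1996 and 2723. The counts of WT10 cells were 763, 792, 899.6, 904 and 1024. Those of MUT3 cells were 375, 369.6, 377, 390.5 and 457. EGR1 was thus higher at each dose than at the one before in both wild type clones, and the levels of the 3 clones did not overlap at any dose. At 25 ng/ml the ratio to untreated was 2.10 in WT6 cells (1.96 to 2.26), 1.34 in WT10 cells (1.22 to 1.48) and 1.22 in MUT3 cells (1.05 to 1.42). WT10 cells, in which ARC fell, therefore had more EGR1 at 25 ng/ml than untreated.

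The promoters of the members were searched for the CArG box, CC followed by 6 bases that are each A or T and then GG, which reads the same way on both strands as a pattern, and for the CRE, TGACGTCA. The windows, from RefSeq on GRCh38.p14, run from 250 bases before to 50 bases after a gene start and match 6 of the 9 members, EGR1, EGR2, FOS, FOSB, NR4A1 and IER2. A CArG box was present in 1.29% of all 35116 windows and a CRE in 1.85%. EGR1 held 2 CArG boxes and EGR2 held 1, while FOS, FOSB, NR4A1 and IER2 held none in these windows, and none of the 6 held a CRE. The boxes are given in capitals with 10 bases on either side, since they are the letters through which SRF is known to act. The first lies at chr5:138465364-138465393 on the plus strand, where the box begins 105 bases before the gene start, and the second at chr5:138465386-138465415, where it begins 83 bases before. The EGR2 box lies at chr10:62816418-62816447 on the minus strand and begins 71 bases before the gene start.
EGR1, first box: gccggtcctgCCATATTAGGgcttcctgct
EGR1, second box: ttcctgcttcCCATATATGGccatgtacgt
EGR2: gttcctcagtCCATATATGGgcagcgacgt
The second EGR1 box and the EGR2 box have the same 10 letters. A match describes the sequence only, and the window does not reach the more distant elements that these genes are known to have.

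EGR2 was close to the floor. It had between 1 and 3 reads per library in WT6 cells, between 2 and 20 in WT10 cells and between 6 and 10 in MUT3 cells. The highest of these, 20 reads, came from the deepest library, and corresponded to a normalized count of 7.95. A gene of GENCODE release 44 without a symbol overlaps EGR2 on the same strand. No fold is given, since no library held more than 20 reads.

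EGR3, which encodes a related zinc finger factor, was as low. Its reads were 6, 7, 7, 4 and 4 in WT6 cells, 9, 6, 10, 20 and 4 in WT10 cells and 0, 1, 1, 0 and 6 in MUT3 cells, from untreated to 25 ng/ml. As normalized counts these were 5.97 or less in WT6 cells from 2.5 ng/ml on and 4.14 in WT10 cells at 25 ng/ml. The only MUT3 library above 3 reads was that at 25 ng/ml, at 6.29. No treated library of EGR2 or EGR3 differed from its untreated one beyond counting error at this depth. Among successive doses the step of EGR3 in MUT3 cells from 5 to 25 ng/ml, from 0 to 6 reads, was the 1 beyond it.

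FOS, an AP-1 subunit, occupies chromosome 14 from 75745529 to 75748933 on the plus strand with no overlapping gene. WT6 cells had FOS counts of 138, 148, 143, 202 and 315. WT10 cells had 74.6, 88.7, 70.8, 76.3 and 77.7. MUT3 cells had 42.5, 54.4, 40.5, 48.7 and 57.6. FOS in WT6 cells was level up to 2.5 ng/ml and higher at 5 and 25 ng/ml, while in WT10 and MUT3 cells it moved up and down within a narrow range. The ratio at 25 ng/ml was 2.28 in WT6 cells (1.84 to 2.85), 1.04 in WT10 cells (0.741 to 1.47) and 1.36 in MUT3 cells (0.868 to 2.14). The last 2 intervals include 1.

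FOSB, which shares JUN partners with FOS, lies on chromosome 19 from 45971253 to 45978437, where ERCC1 overlaps it on the opposite strand. Across the doses its counts in WT6 cells were 61.4, 57.6, 62.2, 69.5 and 106. For WT10 cells they were 85.5, 81.01, 68.8, 66.4 and 68.4. For MUT3 cells they were 70.03, 77.7, 53.4, 53.3 and 69.1. The WT6 library at 25 ng/ml was the highest of the 15, and the others lay between 53.3 and 85.5 with the clones overlapping. The ratio at 25 ng/ml was 1.73 in WT6 cells (1.22 to 2.46), 0.800 in WT10 cells (0.568 to 1.12) and 0.987 in MUT3 cells (0.681 to 1.44).

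NR4A1, the nuclear receptor also called NUR77, lies on chromosome 12 from 52416616 to 52453291, with NR4A1AS on the opposite strand. The NR4A1 counts of WT6 cells were 78.9, 88.5, 83.6, 66.8 and 135. Among WT10 libraries they were 95.2, 78.1, 61.8, 65.6 and 74.6. Among MUT3 libraries they were 62.5, 78.8, 80.06, 68.0 and 89.04. The rise in WT6 cells rested on the library at 25 ng/ml alone, since the count at 5 ng/ml was the lowest of that clone. All 4 treated WT10 libraries lay below the untreated one, and all 4 treated MUT3 libraries lay above it. At 25 ng/ml the ratio was 1.70 in WT6 cells (1.25 to 2.33), 0.784 in WT10 cells (0.566 to 1.08) and 1.42 in MUT3 cells (0.993 to 2.06), and the intervals of WT10 and MUT3 cells include 1.

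IER2, a nuclear protein of the immediate early response, lies on chromosome 19 from 13261225 to 13265725, with 2 genes on the opposite strand. IER2 in WT6 cells stood at 1676, 1742, 1686, 2166 and 2679. In WT10 cells IER2 stood at 4295, 4037, 3889, 3857 and 4606. In MUT3 cells IER2 stood at 2489, 2685, 2643, 2497 and 2872. WT10 was the highest clone at every dose and WT6 the lowest, and the highest library of each clone was that at 25 ng/ml. The ratio at 25 ng/ml was 1.60 in WT6 cells (1.497 to 1.71), 1.07 in WT10 cells (1.03 to 1.12) and 1.15 in MUT3 cells (1.09 to 1.22).

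IER3, an early response gene that acts in cell survival, lies on chromosome 6 from 30710976 to 30712325, with HCG20 and IER3-AS1 on the opposite strand. Counts of IER3 were 3031, 3439, 3291, 4842 and 5633 in WT6 cells. WT10 libraries held 10012, 9695, 9634, 10172 and 11105. MUT3 libraries held 10358, 10278, 10380, 10548 and 11967. All WT6 libraries lay below all libraries of the other 2 clones. At 25 ng/ml the ratio was 1.86 in WT6 cells (1.77 to 1.95), 1.11 in WT10 cells (1.08 to 1.14) and 1.16 in MUT3 cells (1.12 to 1.19).

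Per kilobase of transcript, IER3 was the most abundant member in each untreated clone, at 2451 normalized counts per kilobase for WT6, 8094 for WT10 and 8374 for MUT3. IER2 came next, at 794, 2035 and 1179 per kilobase, and then EGR1, at 413, 243 and 119.6. ARC stood at 16.0 per kilobase in WT6 cells, beside FOSB at 16.3 and under NR4A1 at 31.8 and FOS at 65.6. In WT10 cells ARC, at 109 per kilobase, exceeded FOS at 35.5, NR4A1 at 38.3 and FOSB at 22.6. In MUT3 cells ARC, at 10.2 per kilobase, was the lowest member apart from EGR2 and EGR3.

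Between untreated WT10 cells and untreated WT6 or MUT3 cells, the other members over the filter differed less than ARC. Between untreated WT6 and MUT3 cells some differed more, where the ratio of ARC was 1.57. There the ratio of WT6 to MUT3 was 3.45 for EGR1 (3.04 to 3.93), 3.25 for FOS (2.21 to 4.89) and 0.293 for IER3 (0.280 to 0.306). It was 0.876 for FOSB, 1.26 for NR4A1 and 0.673 for IER2. Against WT6 cells, untreated WT10 cells had 0.541 times as much FOS (0.397 to 0.731) and 0.589 times as much EGR1 (0.536 to 0.647). FOSB and NR4A1 differed by ratios of 1.39 (0.976 to 1.998) and 1.21 (0.874 to 1.67), both with intervals that include 1. IER2 and IER3 were higher in WT10 cells, by ratios of 2.56 (2.42 to 2.72) and 3.30 (3.17 to 3.45), against 6.82 for ARC. Against MUT3 cells, untreated WT10 cells had more EGR1, by a ratio of 2.03 (1.77 to 2.33), more FOS, by 1.76 (1.15 to 2.73), more NR4A1, by 1.52 (1.06 to 2.20), and more IER2, by 1.73 (1.63 to 1.82). FOSB had a ratio of 1.22 (0.856 to 1.75) and IER3 of 0.967 (0.938 to 0.996), against 10.7 for ARC.

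**Figure D2:**
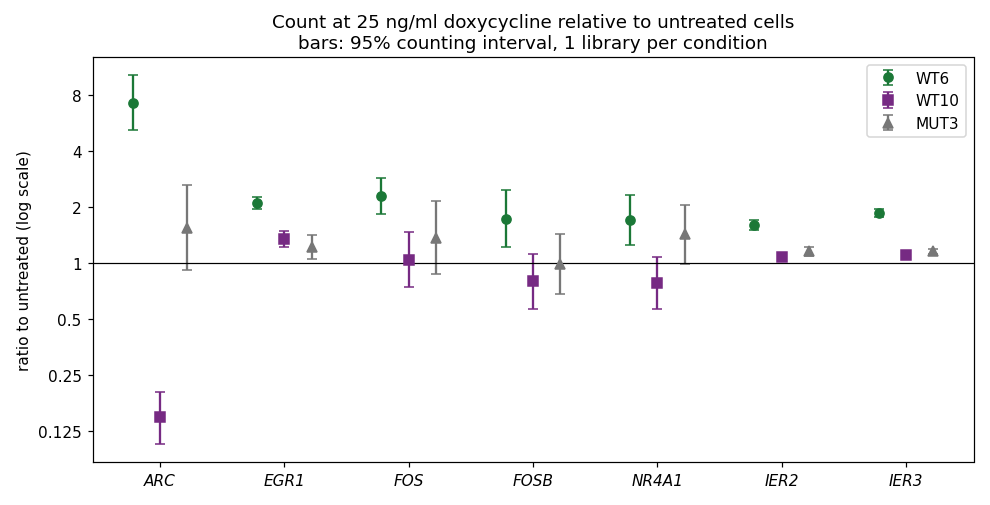
Normalized count at 25 ng/ml doxycycline over that of untreated cells (y axis, log scale) for the 7 members above the filter in WT6, WT10 and MUT3 cells, with bars for the 95% counting interval of 1 pair of libraries. In WT6 cells all 7 ratios lay above 1, from 1.60 for IER2 to 7.22 for ARC, while in WT10 cells ARC alone lay under 0.5, at 0.148.

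At 25 ng/ml, 7 of the 7 members over the filter were above untreated for WT6, 4 for WT10 and 6 for MUT3, where 52.0%, 49.3% and 54.0% of all genes over the filter were. A ratio of at least 2 was reached in WT6 cells by 3 of the 7, ARC, EGR1 and FOS, beside 11.3% of all genes, and a ratio of at most 0.5 by 0, beside 7.66%. In WT10 cells 0 members reached 2, beside 4.98% of all genes, and 1 member, ARC, fell to 0.5 or under, beside 1.58%. In MUT3 cells 0 members passed either limit, beside 0.736% and 0.668% of all genes. The rule that chose the members used these values, so the shares are given as background and nothing is read from them. EGR1, at 2.10, and FOS, at 2.28, stood just inside the limit of 2, and IER3, at 1.86, just outside it.

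**Figure D3:**
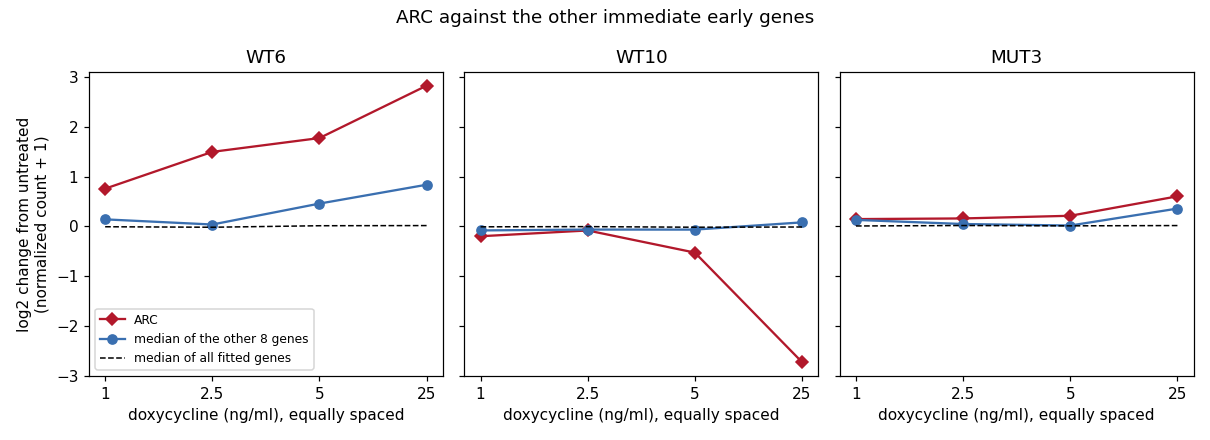
Change from untreated on the log2(normalized count + 1) scale (y axis) against doxycycline (x axis, ng/ml, doses equally spaced) for ARC, the median of the other 8 members and the median of all 12644 fitted genes, with 1 panel per clone. At 25 ng/ml ARC stood 1.99 above the other members in WT6 cells and 0.25 above them in MUT3 cells, and in WT10 cells its difference from them was -2.81.

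ARC was set against the median of the other 8 members at each dose, as a difference of log2 changes from untreated. In WT6 cells ARC exceeded that median by 0.62, 1.46, 1.32 and 1.99 from the lowest to the highest dose. The differences in WT10 cells were -0.12, -0.02, -0.46 and -2.81. MUT3 cells gave 0.02, 0.11, 0.20 and 0.25. In WT6 cells ARC therefore moved in the direction of the other members and further, and in WT10 cells at 25 ng/ml it left them. The median of the other 8 was itself 0.84 at 25 ng/ml for WT6, 0.08 for WT10 and 0.36 for MUT3. The median of all fitted genes stayed within 0.02 of no change in every library, where scaling by size factors tends to hold it. The 2 lowest members, EGR2 and EGR3, did not decide the median of the other 8: over the 6 members above the filter the median at 25 ng/ml was 0.84 for WT6, 0.08 for WT10 and 0.25 for MUT3.

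A line of log2(normalized count + 1) on log2(dose + 1) was fitted in each clone, and its slope is the log2 change per unit of log2(dose + 1). The slope of ARC was 0.56 in WT6 cells (standard error 0.08), -0.47 in WT10 cells (0.08) and 0.12 in MUT3 cells (0.13). Without the libraries at 25 ng/ml these slopes were 0.69, -0.17 and 0.08, so the size of the WT10 slope rested largely on that dose. Its sign stayed negative, although of the remaining WT10 ratios only that at 5 ng/ml had a counting interval below 1. Among the other 6 fitted members, slopes in WT6 cells lay between 0.15 (NR4A1, standard error 0.06) and 0.28 (FOS, 0.04). In WT10 cells they lay between -0.07 (FOSB, 0.06) and 0.09 (EGR1, 0.02), and in MUT3 cells between -0.03 (FOSB, 0.06) and 0.08 (NR4A1, 0.07). ARC also scattered most about its lines, with a residual SD of 0.35 on the log2 scale, against 0.06 for EGR1, 0.18 for FOS, 0.20 for FOSB, 0.25 for NR4A1, 0.11 for IER2 and 0.10 for IER3.

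In WT6 cells the ratio at 25 ng/ml also moved with transcript length across all genes. When the genes were cut into 5 equal groups by length, the median ratio was 1.49 for the shortest group and 0.729 for the longest. At 5 ng/ml, where FOS, IER2 and IER3 were first well above untreated, these medians were 1.52 and 0.750. They were 1.02 and 0.968 at 1 ng/ml and 0.989 and 0.980 at 2.5 ng/ml. The length trend was thus marked only in the libraries at 5 and 25 ng/ml, and its cause was not tested. IER3 belonged to the shortest group. FOS, NR4A1 and IER2 belonged to the next, with a median ratio of 1.15 at 25 ng/ml, and ARC, EGR1 and FOSB to the middle group, with 0.982. Once trends with length and GC content were removed, the ratio at 25 ng/ml in WT6 cells was 5.86 for ARC, 2.03 for EGR1, 1.82 for FOS, 1.76 for FOSB, 1.38 for NR4A1, 1.17 for IER2 and 1.19 for IER3. FOS was then under 2, and the ratios of IER2 and IER3 came nearest to 1. ARC in WT10 cells was little altered, at 0.159.

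Of the 12853 genes over the filter in both wild type clones, 12 (0.0934%) had a ratio of at least 2 in WT6 cells and of at most 0.5 in WT10 cells, as ARC did, and 3 showed the reverse. In contrast, 302 genes passed the limit upwards in both clones and 67 downwards in both. Of the 12 genes, 8 lay above untreated in WT6 cells and below it in WT10 cells at every dose, ARC among them. Another of the 8 was RCN3, which encodes a calcium-binding protein of the endoplasmic reticulum. ARC had the highest ratio of the 12 in WT6 cells. RARRES2, the gene for the secreted protein chemerin, went from 24.1 to 54.8 in WT6 cells and from 23.8 to 3.11 in WT10 cells, where the last value was at the floor.

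Likeness to ARC was measured by Pearson's correlation of log2(normalized count + 1), centred within each clone, over the 15 libraries, as a description with no test. The points share libraries and doses, and the WT10 library at 25 ng/ml carries much weight in them. The 5 genes most like ARC were TAGLN (r = 0.909, Spearman's rho 0.879), APBB3 (0.890), GTF2H4 (0.879), GAD1 (0.875) and RCN3 (0.871). TAGLN, the gene for the actin-binding protein transgelin, went from 133 to 217 in WT6 cells, from 563 to 219.7 in WT10 cells and from 615 to 729 in MUT3 cells between no doxycycline and 25 ng/ml. RCN3 went from 122 to 394 in WT6 cells and from 134 to 56.0 in WT10 cells. Members of the immediate early group ranked lower than these, from FOS (r = 0.564, rank 544 of 12643 genes) and FOSB (0.560) down to NR4A1 (0.372, rank 2110). Each of them had a positive r and still ranked above most genes. Because ARC was chosen for standing out from these members in the same libraries, nothing is read from their distance to it.

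The other genes of the serum response were tested for a dose slope with limma over all genes fitted, with Benjamini-Hochberg adjustment and a threshold of 0.05. The p values rest on the scatter of libraries about the fitted lines within clones. No condition had a replicate, so departure from a line and variation between libraries are mixed in that scatter. Variation between clones is not in it. A called difference from MUT3 is thus a difference among these clones, in which construct and clone cannot be told apart. Over all 12644 genes, 29.2% rose and 28.3% fell in WT6 cells, 10.2% rose and 9.83% fell in WT10 cells, and 0.0% rose and 0.0% fell in MUT3 cells. In MUT3 cells, 295 genes had an unadjusted p under 0.05 by limma, and edgeR called 0 and DESeq2 called 8 genes after adjustment. The slope averaged over WT6 and WT10 was above that of MUT3 cells for 10.1% and below it for 14.6% of genes. Of the lists below, none had a gene called in MUT3 cells by limma, and KLF4 was called there as a rise by DESeq2 and by limma once trends of length and GC content were removed. These lists were drawn up with earlier results of these data known, and their counts are a description beside those shares.

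Among 23 other immediate early genes that were tested, 6 rose and 10 fell in WT6 cells, 3 rose and 2 fell in WT10 cells, and 1 was above and 6 were below MUT3 cells in the mean wild type slope. Their median slope was -0.02 for WT6, -0.02 for WT10 and 0.02 for MUT3, while that of all genes was 0.01, 0.00 and 0.00 and that of the 7 fitted members 0.20, -0.01 and 0.06. KLF4, a Krüppel-like factor, rose from 688 to 1439 in WT6 cells (limma slope 0.23, adjusted p = 9.69e-05) and from 599 to 1170 in WT10 cells (0.21, adjusted p = 0.00113). Its slope in MUT3 cells, 0.17, did not pass (adjusted p = 0.317), and the mean wild type slope was not separated from it (adjusted p = 0.407). KLF2, a relative, fell from 382 to 139.5 in WT6 cells (limma slope -0.28, adjusted p = 0.000221) and from 623 to 356 in WT10 cells (-0.18, adjusted p = 0.00659). BHLHE40, a repressor of the circadian clock, rose in both wild type clones, with limma slopes of 0.15 in WT6 and 0.28 in WT10 cells, but its slope in MUT3 cells was 0.16 and the difference did not pass (adjusted p = 0.627). GEM, a small GTPase, fell in WT6 cells (limma adjusted p = 0.000184) and had an adjusted p of 0.0951 in WT10 cells. The other immediate early genes therefore went both ways in WT6 cells, as did all fitted genes, of which 29.2% rose and 28.3% fell.

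Of the 7 AP-1 partners and MYC, 3 rose and 2 fell in WT6 cells, 1 rose and 2 fell in WT10 cells, and 2 were above and 3 below MUT3 cells. ATF3, a stress-induced partner of JUN, rose from 92.1 to 336 in WT6 cells and from 111 to 343 in WT10 cells, ratios of 3.65 and 3.08, and its mean wild type slope exceeded that of MUT3 cells by 0.42 (limma adjusted p = 0.00841). JUNB rose in WT6 cells (ratio 2.73, limma adjusted p = 5.89e-06), and in WT10 cells its ratio was 1.20 (adjusted p = 0.251). FOSL1 fell from 7504 to 4346 in WT6 cells and from 14541 to 8642 in WT10 cells (limma adjusted p = 0.000143 and 0.000829). FOSL2 fell in WT6 cells to 0.380 of untreated (limma adjusted p = 0.000346), and in WT10 cells its ratio was 0.787 (adjusted p = 0.376). Thus the FOS relatives FOSL1 and FOSL2 fell in WT6 cells, where FOS went from 138 to 315.

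The genes that feed back on ERK signalling fell more often than they rose. Of 12 such genes, 2 rose and 8 fell in WT6 cells, 1 rose and 4 fell in WT10 cells, and 0 were above and 6 below MUT3 cells. Their median slope was -0.13 for WT6, -0.06 for WT10 and 0.01 for MUT3. SPRY4, an inhibitor of receptor signalling to ERK, fell from 3763 to 1462 in WT6 cells and from 2206 to 1517 in WT10 cells, and its mean wild type slope was below that of MUT3 cells by a difference of -0.24 (limma adjusted p = 0.000596). DUSP4, a phosphatase of ERK, fell to 0.618 of untreated in WT6 cells and 0.657 in WT10 cells (limma adjusted p = 0.000139 and 0.00244). ETV5 and SPRY1 fell in both wild type clones too, and DUSP1 was the 1 gene of the list that rose in WT10 cells.

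The list of SRF, its cofactors and the kinases that act on them held 14 genes, of which 2 rose and 9 fell in WT6 cells, 0 rose and 3 fell in WT10 cells, and 0 were above and 6 below MUT3 cells. SRF itself fell from 2545 to 1333 in WT6 cells, from 3876 to 2295 in WT10 cells, and was 3504 and 3412 in MUT3 cells. Its slope was -0.22 in WT6 cells and -0.17 in WT10 cells (limma adjusted p = 1.09e-05 and 0.000289), and the mean wild type slope lay below that of MUT3 cells by a difference of -0.19 (adjusted p = 0.000960). ELK1 fell to 0.476 of untreated in WT6 cells and 0.637 in WT10 cells (limma adjusted p = 1.15e-05 and 0.00248). MKL1, the gene for the cofactor MRTF-A, fell to 0.547 and 0.614 (limma adjusted p = 0.000382 and 0.00817). The ternary complex factor ELK3 fell in WT6 cells (ratio 0.410, limma adjusted p = 0.00142), and in WT10 cells its ratio was 0.629 (adjusted p = 0.122). The mRNAs of SRF, ELK1 and MKL1 thus fell in both wild type clones. Whether this bears on ARC or EGR1 was not tested.

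**Figure D4:**
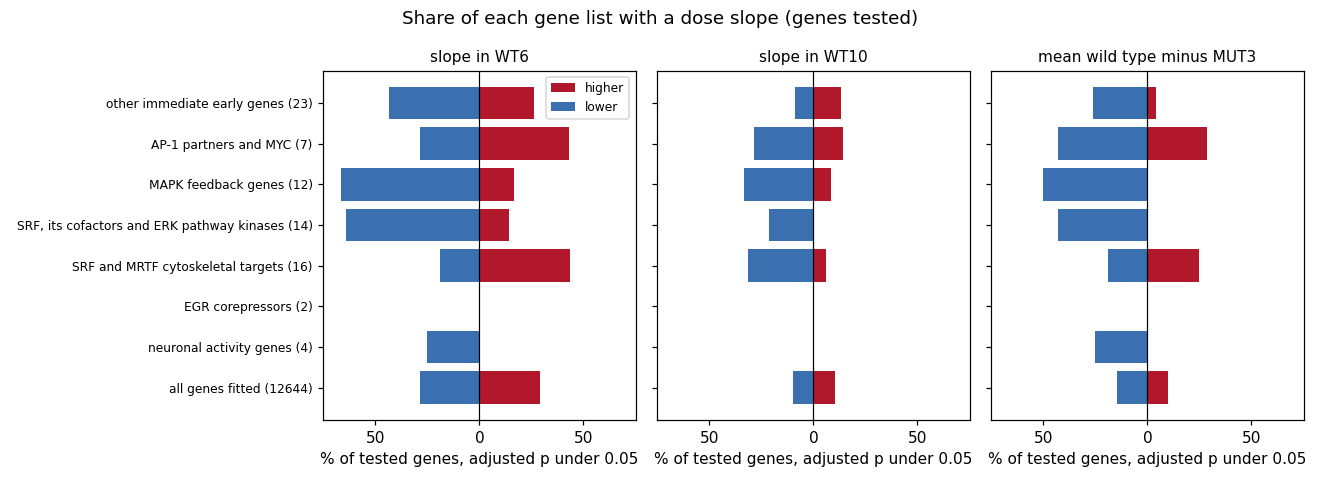
Share of the tested genes of each list (number in brackets) with a rising slope (red, to the right of 0) or a falling slope (blue, to the left of 0) at a limma adjusted p under 0.05, in percent, for WT6, WT10 and the difference of the mean wild type slope from MUT3, with all fitted genes at the bottom. Of the 14 genes of SRF, its cofactors and kinases 9 fell in WT6 cells and 0 rose in WT10 cells.

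The cytoskeletal genes known as targets of SRF with its MRTF cofactors went more ways. Of 16 tested, 7 rose and 3 fell in WT6 cells, 1 rose and 5 fell in WT10 cells, and 4 were above and 3 below MUT3 cells. Their median slope was 0.05 in WT6 cells and -0.06 in WT10 cells. TAGLN was the gene of this list called in opposite directions, as a rise in WT6 cells (limma slope 0.16, adjusted p = 0.0162) and a fall in WT10 cells (-0.28, adjusted p = 0.000826). ANKRD1, a cardiac and muscle stress gene that YAP also controls, rose in both, from 28816 to 51055 in WT6 cells and from 6111 to 16190 in WT10 cells (limma adjusted p = 0.000460 and 6.11e-05). TPM2, a tropomyosin, rose in WT6 cells (ratio 2.62, limma adjusted p = 5.05e-05), and in WT10 cells its ratio was 0.966 (adjusted p = 0.832). ACTN1 fell in both, and FLNA fell in WT6 cells and had a ratio of 0.724 in WT10 cells (limma adjusted p = 0.168). A CArG box was found in the promoter windows of 6 of the 12 genes of this list that had a window, against 1.60% of the 27305 genes with one. With trends of length and GC content removed, 3 rose and 8 fell in WT6 cells in place of 7 and 3, and 1 rose and 8 fell in WT10 cells, and 1 was above and 7 below MUT3 cells in place of 4 and 3, so that the balance of this list turned in WT6 cells and in the difference from MUT3.

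NAB1 and NAB2, the corepressors that bind EGR proteins, were not called in any clone, with slopes between -0.07 and 0.07. With trends of length and GC content removed, NAB1 was called as a rise in both wild type clones and against MUT3 cells and NAB2 as a fall in WT6 cells, and without 5 ng/ml NAB2 was called as a fall in WT10 cells. Of 8 genes of neuronal activity and the synapse, 4 were tested. HOMER1, a scaffold protein of the synapse, fell in WT6 cells (ratio 0.496, limma adjusted p = 0.00237), and DLG4 (ratio 0.702, adjusted p = 0.0541), BDNF and VGF did not pass there, nor did any of the 4 in WT10 cells. DLG4 was called as a fall in WT6 cells by DESeq2, with TMM factors and without 5 or 25 ng/ml, and BDNF as a rise with trends of length and GC content removed and without 0 ng/ml. Of the neuron markers looked at, the splicing factor RBFOX3 had a normalized count of at most 4.14 in any library. SYP reached 23.8 and SNAP25 reached 31.3. MAP2 lay between 572 and 988 in WT6 cells, between 50.8 and 90.9 in WT10 cells and between 118 and 140.1 in MUT3 cells. Without the libraries at 25 ng/ml, 0 genes of any of these lists were called in WT10 cells or in the difference from MUT3 cells.

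Within 250000 bases of ARC the table held 11 other genes, of which 5 were over the filter in WT6 cells and 4 in WT10 and in MUT3 cells. In WT10 cells, where ARC was at 0.148 of untreated, the ratio at 25 ng/ml of these neighbours lay between 0.651 and 1.15. In WT6 cells it lay between 0.596 for JRK, the nearest of them at 43034 bases, and 4.13 for PSCA, a surface protein first described in prostate. In MUT3 cells it lay between 0.894 and 1.12. PSCA was the 1 neighbour past a ratio of 2, and it was under the filter in WT10 and MUT3 cells.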

How the data were processed

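Total RNA was selected for polyA, made into TruSeq libraries and sequenced in pairs, 1 library for each of the 15 clone and dose conditions. Alignment by the authors was to hg19 with STAR, counting used HTSeq 0.5.4 defaults, and DESeq size factors gave the scaling. The deposited signal is therefore reads over a size factor. Whole reads were recovered from 100% of the values (tolerance 0.01 reads). The annotation, and whether the libraries keep the strand, were not given in the sources used here, so reads of genes on opposite strands may mix. The 5 HTSeq tallies stayed out of the fit, and reads on no gene made up 56.5% to 59.6% of counted reads.

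The members, pathway lists and tests were chosen with earlier results of these data known. Ratios of 2 libraries have exact binomial 95% intervals (scipy 1.17.1), which cover counting error only. Slopes on log2(dose + 1), an intercept and a slope per clone, were fitted with limma 3.58.1 in R 4.3.3 on log2(normalized count + 1), with limma's precision weights, for 12644 genes averaging 10 or more in every clone (9 residual degrees of freedom), with Benjamini-Hochberg adjustment. The fit was tested on simulated data. Its p values rest on scatter about the lines within clones and leave out variation between clones. From each list, up to 4 genes with the largest absolute mean wild type slope were named, with the 5 genes most like ARC. RARRES2, DUSP1, JRK and PSCA were singled out after their values were seen. Alternatives were another pseudocount, no filter, no weights, TMM factors, edgeR 4.0.16 and DESeq2 1.42.0 on the recovered reads, removal of length and GC trends by splines with 4 degrees of freedom, and each dose left out. Symbols were matched to GENCODE release 44 on hg19 for 92.0% of genes, and promoters were taken from RefSeq on GRCh38.p14.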

Additional observations from a re-analysis of the deposited data

Results flagged for a closer look

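The change of ARC at 25 ng/ml went in opposite directions in the wild type clones, with a ratio to untreated of 7.22 in WT6 cells and 0.148 in WT10 cells. All 4 treated libraries were above the untreated one in WT6 cells and below it in WT10 cells. The same held between WT10 cells (0.148) and MUT3 cells (1.54), where all 4 treated libraries lay above the untreated one. NR4A1 also stood below untreated at all 4 doses in WT10 cells (0.784 at 25 ng/ml) and above it at all 4 doses in MUT3 cells (1.42). None of these differences was tested, since each condition had 1 library and the genes were chosen with these values known. In MUT3 cells the counting intervals of both genes include 1 at all 4 doses. In WT10 cells they include 1 for ARC at 1 and 2.5 ng/ml and for NR4A1 at 1 and 25 ng/ml. In the 2 clones compared, the treated libraries share 1 untreated library each, so a low or high untreated value moves all 4 comparisons together.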

How the results depend on the processing

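No paired analysis was possible because each clone and dose had 1 library and the labels carry no replicate numbers. ARC kept its direction in each clone under every alternative run. With 5 and 25 ng/ml set against 0 and 1 ng/ml, its log2 ratio was 1.92 in place of 2.83 in WT6 cells and -1.53 in place of -2.73 in WT10 cells, and its difference from the other members was 1.33 in place of 1.99 and -1.50 in place of -2.81. Without 25 ng/ml the slope of NR4A1 in WT6 cells turned from 0.15 to -0.081, the 1 change of sign of a member slope that exceeded 2 standard errors. Smaller slopes changed sign too, in WT10 cells IER2 without 25 ng/ml (0.024 to -0.062), NR4A1 without 0 (-0.070 to 0.011) and FOS without 1 ng/ml (-0.0050 to 0.016), and in MUT3 cells FOSB without 1 ng/ml (-0.029 to 0.0014). Counting 1 value per member, clone and alternative, 248 slopes moved by less than 1 standard error and 24 others by more.

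Counts of genes with a slope depended on single doses. In WT6 cells they were 4688 without 25 ng/ml in place of 7272. In WT10 cells they were 17 without 25, 1006 without 1, 1579 without 0 and 3846 without 5 ng/ml, and 4376 with length and GC trends removed, in place of 2527. In MUT3 cells they were 14 with no filter, 8 by DESeq2, 7 with trends removed, 5 without 5 ng/ml, 1 without 0 ng/ml and 1 with no weights, in place of 0. For the difference from MUT3 they were 1556 without 0, 844 without 1 and 1 without 25 ng/ml (2209 at an unadjusted p under 0.05), in place of 3114. Removing the trends with length and GC content also raised the falls in WT10 cells from 2 to 7 among the other immediate early genes and from 3 to 6 among SRF, its cofactors and kinases, while falls over all genes went from 1243 to 2494. The cause of these changes was not tested. Each fit that leaves a dose out has fewer libraries, and in WT10 cells such fits gave between 17 and 3846 genes in place of 2527. Depth limits EGR2, EGR3 and ARC in MUT3 cells.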
